A study of Mus musculus with 8 samples.

Results

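The suppressors of cytokine signaling (SOCS) family consists of *Cish*, which encodes CIS, and *Socs1* to *Socs7*. These 8 genes were taken by symbol from the 54232 gene IDs of the deposited count table, as the members of a known family. Their RNA was examined in splenic CD8+ T cells and NK1.1+ natural killer (NK) cells of *Tyk2*-/- mice, which lack the Janus kinase TYK2 according to their labels. The mice were on a C57BL/6N background, labelled C57BL/6, and 8 to 12 weeks old, and the cells were labelled homeostatic, i.e. without treatment. The study asked how TYK2 shapes the transcriptomes of different immune cells. Cells of 3 pooled spleens were FACS-purified for each library and sequenced as short single-end RNA reads, with 3 libraries per cell type. Both groups carry the same knockout, thus the comparison is one of cell types within *Tyk2*-/- mice and says nothing of the effect of TYK2. *WT* CD8+ T cells were not analysed here, because 3 columns are named for them, whereas the series lists 2 such samples, and the names do not assign them. The columns of the *Tyk2*-/- cells are numbered here as libraries 1 to 3 of each cell type, and these numbers pair nothing.

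All SOCS proteins share a central SH2 domain, which binds phosphorylated tyrosines, and a carboxy-terminal SOCS box. The SOCS box recruits elongin B, elongin C and cullin 5 and thereby forms a ubiquitin ligase that can target bound proteins for degradation. CIS, SOCS1, SOCS2 and SOCS3 are classical feedback inhibitors, as their genes are induced by STAT transcription factors downstream of the cytokine receptors they restrain. In NK cells and CD8+ T cells, the family is best known for limiting responses to IL-2, IL-15, interferons and IL-6.

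Total counts were 20957384 to 26144478 in the CD8+ T cell libraries, compared with 32848432 to 38573550 in the NK cell libraries, with at least 1 count for 12893 to 14042 and 17224 to 17373 genes, respectively. The common biological coefficient of variation, i.e. the typical spread of a gene between libraries of a group beyond counting error, was 1.43 in CD8+ T cells versus 0.855 in NK cells. Defining markers followed the labels. Of 8 NK cell markers, 7 were called higher in NK cells and none in CD8+ T cells, and *Ncr1* and *Itga2* had no count in any CD8+ T cell library. Of 8 CD8+ T cell markers, 7 were called higher in CD8+ T cells, as opposed to none in NK cells, and *Cd8b1* and *Cd6* had no count in any NK cell library. The targeted gene *Tyk2* (ENSMUSG00000032175) had 105, 919 and 554 counts in CD8+ T cells, compared with 3864, 4245 and 3207 counts in NK cells. Every NK cell library was higher than every CD8+ T cell library, as for 25.5% of all genes tested. The log2 fold change of 2.51 did not pass the test (adjusted p = 0.075, edgeR), and reads of *Tyk2* were present in all 6 libraries. Without CD8+ T cell library 1 or 2, *Tyk2* was called (adjusted p = 0.045 and 0.040, edgeR), but not without any other library. DESeq2, which called more genes in all, called it too (adjusted p = 0.0024). The counts cover the whole gene, so they cannot show whether a deleted stretch is missing from the RNA.

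Of the SOCS genes, *Socs2* was the one that passed the test between the cell types. It was present in every NK cell library and had no count in any CD8+ T cell library. *Socs5* and *Socs7* were also higher in every NK cell library than in any CD8+ T cell library, but neither passed the test. The other 5 genes, *Cish*, *Socs1*, *Socs3*, *Socs4* and *Socs6*, had overlapping values in the cell types. All 8 SOCS genes had a mean normalised count of at least 10 and were tested. In the edgeR quasi-likelihood test with Benjamini-Hochberg adjustment over all 14062 genes tested, 1 of 8 was called at an adjusted p below 0.05, higher in NK cells, and none was called higher in CD8+ T cells. Among all genes tested, 11.4% were called, 6.24% as higher in NK cells and 5.14% as higher in CD8+ T cells. For 3 of 8 SOCS genes, every NK cell library was higher than every CD8+ T cell library, against 25.5% of all genes. CD8+ T cells were higher in this way for none of 8 against 16.1%, and 41.6% of all genes separated in either direction. *Socs2* was also the 1 member with an unadjusted p below 0.05 (0.00047), a limit passed by 30.7% of all genes. Log2 fold changes are given as NK over CD8+ T cells, and their median was 0.13 for the 8 SOCS genes (also with *Socs2* at its lower bound given below) and 0.10 for all genes tested. The called share of the 8 genes is near the background, and the results below concern the single genes. In bulk samples, fewer cells that express a gene and less RNA per cell cannot be told apart.

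**Figure D1:**
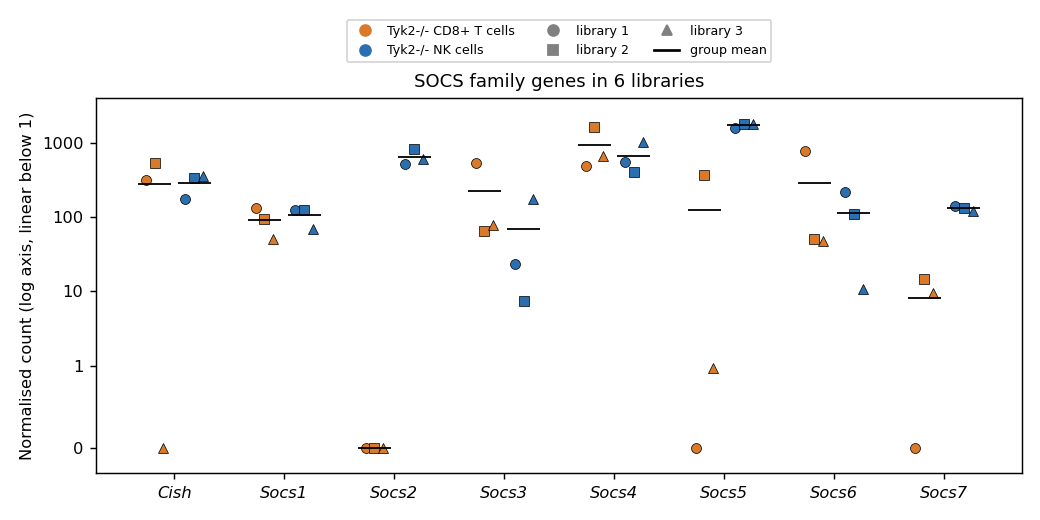
Normalised counts (log axis, linear below 1) of the 8 SOCS genes in the 3 *Tyk2*-/- CD8+ T cell libraries (orange) and the 3 *Tyk2*-/- NK cell libraries (blue), with horizontal lines at the group means. *Socs2* sits at 0 in all CD8+ T cell libraries and between 519.6 and 820.9 in NK cells, whereas *Cish*, *Socs1*, *Socs3*, *Socs4* and *Socs6* overlap between the groups.

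The members are described by their roles, beginning with the cytokine-induced inhibitors CIS, SOCS1, SOCS2 and SOCS3. Stretches of promoter sequence are shown for *Cish*, *Socs3* and *Socs1*, since these genes are textbook targets of STAT and interferon-activated factors and hold the motif of such a factor near their start. The sequences are from RefSeq (GRCm38.p6), which covered *Cish*, *Socs1*, *Socs3* and *Socs4* among the members, from 250 bases before to 50 bases after the start. Capitals mark the matches to TTCNNNGAA, the motif of STAT dimers with N for any base, or to the core of the interferon-stimulated response element (ISRE), i.e. GAAA and again GAAA with 2 bases of any kind between them. Both strands were searched.
Cish, chr9:107296655-107296682, plus strand: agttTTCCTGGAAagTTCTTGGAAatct
Socs3, chr11:117969503-117969529, minus strand: aaaccagccTTCTTAGAAgggaggggg
Socs1, chr16:10785598-10785625, minus strand: ttgccgGAAAGAGAAACCGAAAgcgggg

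In *Cish*, 2 STAT motifs lie next to each other, from offset 0 to 19 of the RefSeq start. In the GENCODE annotation of GRCm38, all 28 bases of that stretch fall into the 5′ UTR in the first exon of the longer *Cish* transcript, and the stretch begins 55 bases before the shorter one. In *Socs3*, 1 STAT motif lies at offset -154 to -146, upstream of the first exon of its transcript in the basic annotation. In *Socs1*, 2 ISRE cores that overlap each other lie at offset -83 to -68, also upstream of the first exon. No match to either motif was found in the same window of *Socs4*. Neither *Cish* nor *Socs3* held an ISRE core there, and *Socs1* held no STAT motif. Among 32851 promoters of the same length, 8.30% held at least 1 STAT motif and 0.457% at least 2, whereas 3.44% held at least 1 ISRE core and 0.225% at least 2. A match of letters is a description and does not show that a factor binds there.

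*Cish* (ENSMUSG00000032578, chr9:107296026-107302784, plus strand) encodes CIS, a STAT5-induced inhibitor that restrains IL-15 responses of NK cells and T cell receptor signaling in CD8+ T cells. Its normalised counts were 315.7, 533.5 and 0 in the CD8+ T cell libraries versus 176.1, 335.9 and 360.5 in the NK cell libraries. CD8+ T cells thus held both the highest value and the only 0, and the groups overlapped. The means were 283.0 ± 268 (SD, n = 3) in CD8+ T cells, as opposed to 290.8 ± 100.1 (SD, n = 3) in NK cells. The log2 fold change was 0.04, with a standard error of 1.81 and a 95% confidence interval of -4.29 to 4.37 (adjusted p = 0.99, edgeR quasi-likelihood test). The interval covers both a large excess and a large deficit in NK cells, so equal levels are not shown. Without CD8+ T cell library 3, or NK cell library 2 or 3, the value turned to -0.55, -0.077 and -0.14, respectively. Exons of *Cish* share 479 bases with the antisense gene *Gm17041* and 103 bases with the pseudogene *Gm17040*, both on the opposite strand. Both of these had no count in any of the 6 libraries.

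*Socs1* (ENSMUSG00000038037, chr16:10782240-10785536, minus strand) encodes the inhibitor of JAK kinases that limits interferon and common gamma chain cytokine signaling. The gene was low and present in all 6 libraries. Its normalised counts were 132.1, 94.4 and 50.3 in CD8+ T cells, compared with 126.5, 125.6 and 70.1 in NK cells. The groups overlapped. Its log2 fold change was 0.22, with a standard error of 1.11 and an interval of -2.42 to 2.86 (adjusted p = 0.92, edgeR), and -0.072 without CD8+ T cell library 3. In CD8+ T cells, *Socs1* was the most even member, with a highest value 2.63 times the lowest, and its coefficient of variation (0.444) lay at percentile 8.87 among 1184 genes with a mean within a factor of 1.5.

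*Socs3* (ENSMUSG00000053113, chr11:117966079-117970047, minus strand) encodes the inhibitor that binds gp130 and other receptors and limits IL-6 and IL-12 signaling. Its normalised counts were 531.0, 65.0 and 79.3 in CD8+ T cells versus 23.4, 7.54 and 177.1 in NK cells. In each cell type, 1 library stood above the other 2, namely library 1 of the CD8+ T cells and library 3 of the NK cells. The highest value was 8.17 times the lowest in CD8+ T cells, as opposed to 23.5 times in NK cells. This gave a log2 fold change of -1.70, with a standard error of 1.60 and an interval of -5.55 to 2.15 (adjusted p = 0.52, edgeR). Without CD8+ T cell library 1, it was -0.04, and without NK cell library 3 it was -3.86 (adjusted p = 0.31, edgeR), so its size rests on these libraries.

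*Socs2* (ENSMUSG00000020027, chr10:95385362-95417180, minus strand) encodes a STAT5-induced inhibitor that is best known for restraining growth hormone signaling. It had 0, 0 and 0 counts in the CD8+ T cell libraries, compared with 534, 980 and 685 counts in the NK cell libraries. Normalised counts in NK cells were 519.6, 820.9 and 615.8, with a mean of 652.1 ± 153.9 (SD, n = 3). Every NK cell library therefore stood above every CD8+ T cell library. With 3 counts per library taken as the limit that a count of 0 allows (3.42 normalised counts), the mean in NK cells was at least 191-fold higher, and the lowest NK cell library was at least 152-fold higher. This bound, like those given below for other genes, covers counting error only. Of all genes reaching 100 normalised counts in a CD8+ T cell library, 18.4% had no count in another library of the group. The adjusted p was 0.012 (edgeR quasi-likelihood test, n = 3 libraries per group). Leaving out any 1 of the NK cell libraries ended the call, with adjusted p-values of 0.079, 0.088 and 0.084 without libraries 1, 2 and 3. Leaving out a CD8+ T cell library did not, with adjusted p-values of 0.010 to 0.012. Spread between NK cell libraries was moderate, since the highest value was 1.58 times the lowest and the coefficient of variation (0.236) lay at percentile 35.1 among 2125 genes of like mean.

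The genes whose values over the 6 libraries were most like those of *Socs2* were *Gm16998*, *St5* and *Gm42196*, by Pearson correlation of log2(normalised count + 1). *St5* had no count in CD8+ T cells versus 772, 1410 and 1031 counts in NK cells. *Gm16998* had 28, 42 and 34 counts and *Gm42196* had 47, 69 and 56 counts in NK cells, with none in CD8+ T cells. In all, 485 genes had a correlation with *Socs2* above 0.99. With all CD8+ T cell values at 0, the measure mainly follows presence in NK cells and sorts little among these genes. The divergent long noncoding gene *5730420D15Rik* starts 195 bases from *Socs2* on the opposite strand, and it had 0, 3 and 0 counts in NK cells and none in CD8+ T cells.

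*Socs4* and *Socs5* form a pair with long amino-terminal regions, and SOCS5 is known for binding the EGF receptor and the IL-4 receptor. *Socs4* (ENSMUSG00000048379, chr14:47276931-47296102, plus strand) was present in all libraries. Its normalised counts were 486.9, 1657 and 670.6 in CD8+ T cells, as opposed to 551.7, 404.6 and 1039 in NK cells. The groups overlapped, with the lowest value in NK cells and the highest in CD8+ T cells. The log2 fold change was -0.50, with a standard error of 0.68 and an interval of -2.12 to 1.13 (adjusted p = 0.67, edgeR), the narrowest interval of the 8 genes. It turned to 0.23 without CD8+ T cell library 2. *Wdhd1*, a replication factor gene that starts 74 bases away on the opposite strand, had 1121, 270 and 679 counts in CD8+ T cells, compared with 70, 419 and 106 counts in NK cells (log2 fold change -2.20, adjusted p = 0.18, edgeR).

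*Socs5* (ENSMUSG00000037104, chr17:87107679-87137839, plus strand) had 0, 307 and 1 counts in CD8+ T cells versus 1643, 2145 and 1999 counts in NK cells. Normalised counts in NK cells were 1599, 1797 and 1797, and the highest value was only 1.12 times the lowest. In CD8+ T cells, *Socs5* was at or under the limit of 3 counts in libraries 1 and 3, but reached 376.5 normalised counts in library 2. NK cells were thus higher in every library, with a mean of 1731 ± 114 against 125.8 ± 217 (SD, n = 3). Its log2 fold change was 3.78, with a standard error of 2.16 and an interval of -1.39 to 8.96, and it did not pass the test (adjusted p = 0.27, edgeR). Without CD8+ T cell library 2, *Socs5* was called (adjusted p = 0.0037, edgeR), so the outcome rests on that library. The fitted log2 fold change was then 11.41, which is no bound, since the remaining CD8+ T cell libraries held 0 and 1 counts. Summed normalised counts of the 8 NK cell markers were also highest in library 2, at 8500, 17154 and 7676 in the CD8+ T cell libraries. NK cells had at least 1255668. Most of the sum in CD8+ T cell library 2 was *Klrd1* (9784) and *Prf1* (5937), which were highest there, as was *Klrk1*. *Klrb1c*, *Gzma* and *Eomes* of that list were not highest in library 2, and *Ncr1* and *Itga2* had no count in it. The part of NK cells in the *Socs5* value of library 2 was not tested.

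*Socs6* and *Socs7* form the remaining pair, known from insulin receptor and receptor tyrosine kinase signaling. *Socs6* (ENSMUSG00000056153, chr18:88665224-88927481, minus strand) had normalised counts of 773.2, 51.5 and 47.4 in CD8+ T cells, as opposed to 220.9, 110.6 and 10.8 in NK cells. CD8+ T cell library 1 stood far above the rest, and the highest value was 16.3 times the lowest in CD8+ T cells, compared with 20.5 times in NK cells. This gave a log2 fold change of -1.35, with a standard error of 1.61 and an interval of -5.21 to 2.51 (adjusted p = 0.62, edgeR). Without CD8+ T cell library 1, it turned to 1.21.

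*Socs7* (ENSMUSG00000038485, chr11:97362551-97398542, plus strand) had 0, 12 and 10 counts in CD8+ T cells versus 145, 161 and 135 counts in NK cells. The normalised means were 8.13 ± 7.48 in CD8+ T cells, as opposed to 132.4 ± 10.1 in NK cells (SD, n = 3), with no overlap. Its log2 fold change was 4.00, with a standard error of 1.79 and an interval of -0.28 to 8.29, and it did not pass edgeR's test (adjusted p = 0.18). DESeq2 called the gene as higher in NK cells (adjusted p = 0.037). However, DESeq2 called 3729 of 12612 genes tested, compared with 1600 of 14062 by edgeR.

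**Figure D2:**
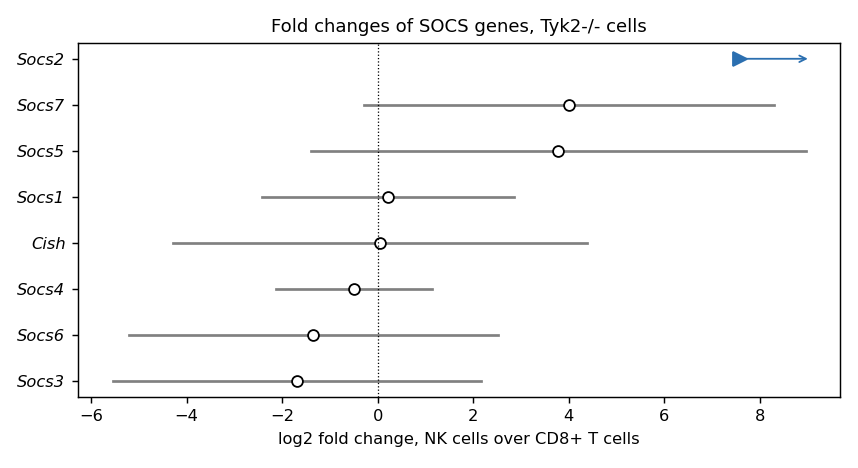
Log2 fold changes between *Tyk2*-/- cell types (NK over CD8+) for the 8 SOCS genes, with bars for the 95% confidence intervals from edgeR. The arrow of *Socs2* starts at the lower bound of 7.58 that follows from 3 counts per CD8+ T cell library, and the intervals of the other 7 genes all include 0.

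The members differed in how evenly they were expressed within a cell type. In NK cells, *Socs5* and *Socs7* were the most even, with coefficients of variation of 0.0661 and 0.0761, against a median of 0.336 over all genes with a mean of at least 10. They lay at percentiles 6.80 and 1.81 among genes of like mean. *Socs3* and *Socs4* were at the other end, at percentiles 83.9 and 82.3, with coefficients of 1.35 and 0.499. In CD8+ T cells, the coefficients ranged from 0.444 for *Socs1* to 1.73 for *Socs5*, and the median over all genes was 0.700. Of the 6 members that reached 100 normalised counts in a CD8+ T cell library, 2 (*Cish* and *Socs5*) had no count in another library of the group. Over all genes reaching 100 in CD8+ T cells, 18.4% had such a 0. In NK cells all 8 members reached 100 and none had a 0, whereas 3.82% of all such genes did. The 0 values of *Cish* and *Socs5* in single CD8+ T cell libraries are therefore of a kind that many other genes in these libraries also show.

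CD8+ T cell libraries 1 and 3 also differed in other gene lists. Summed normalised counts of 7 immediate early genes, which rise when cells are activated or handled, were 23386, 13130 and 8800 in the CD8+ T cell libraries, compared with 11312 to 15835 in the NK cell libraries. None of the 7 was called (median log2 fold change -0.45). *Fos* had 3363, 2969 and 1 counts in CD8+ T cells, and *Jun* had 2227, 418 and 0. In NK cells, *Fos* had 8, 353 and 0 counts and *Jun* 1162, 1674 and 823. *Ier2*, which made up most of the sum in CD8+ T cell library 3, had 7445, 4319 and 7936 counts in CD8+ T cells. Summed counts of 6 B cell markers were 9001, 4761 and 941 in CD8+ T cells versus 246 to 1826 in NK cells. *Ms4a1* had 405, 6 and 0 counts in CD8+ T cells, and *Pax5* was at 0 in all 3. Of these 6 markers, 5 were tested and 1, *Cd22*, was called, as higher in NK cells. Both lists were highest in library 1, where *Socs3* and *Socs6* were highest, and lowest in library 3, where *Cish* was at 0. Their part in these SOCS values was not tested. For *Socs2*, *Socs5* and *Socs7*, myeloid markers moved in the same direction, with sums of 0 to 155.8 in CD8+ T cells, as opposed to 2559 to 3620 in NK cells. Most of that sum was *Itgax*, which NK cells also express, and *Cd14* and *Adgre1* had no count in any library. In the NK cell libraries, *C1qb* had 1, 655 and 0 counts, *Lyz2* had 0, 0 and 43, *Csf1r* had 0, 22 and 0 and *C1qa* had 0, 1 and 0. Each of these 4 had at most 1 count in any CD8+ T cell library. Of 7 myeloid markers, 2 passed the filter and none was called. Sums of 3 CD4+ T cell markers were at most 8.58 in CD8+ T cells, with 29.3 to 642.2 in NK cells, and those of 6 erythroid markers at most 45.3 and 115.6. The part of these cells in the SOCS values was not tested.

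Levels of the members relative to each other were compared per length, as CPM (counts scaled to the effective library size) divided by the exon length in kilobases. In NK cells, *Socs5* was the most abundant member at 12.9 ± 0.852, followed by *Socs2* at 8.36 ± 1.97 (SD, n = 3). Each of these stood apart from the next gene in all 3 libraries. *Socs4* (3.35 ± 1.67) and *Cish* (2.76 ± 0.950) overlapped with each other, and *Cish* stood above *Socs1* (1.28 ± 0.384) in all libraries. *Socs1*, *Socs3* (0.940 ± 1.27), *Socs7* (0.653 ± 0.0497) and *Socs6* (0.643 ± 0.592) did not separate from their neighbours in this order. In CD8+ T cells the order was *Socs4* (4.72 ± 3.17), *Socs3* (3.05 ± 3.59), *Cish* (2.68 ± 2.54), *Socs6* (1.64 ± 2.35), *Socs1* (1.10 ± 0.487), *Socs5* (0.936 ± 1.62), *Socs7* (0.0401 ± 0.0369) and *Socs2* at 0. Here no member stood apart from its neighbour in all libraries, thus the order of neighbours in CD8+ T cells is not settled by these data. Some members further apart in the order did separate. For example, the lowest value of *Socs4* (2.45) was above the highest of *Socs1* (1.57) and of *Socs7* (0.0726). With the longest transcript in place of all exons, *Cish* moved ahead of *Socs4* in NK cells and ahead of *Socs3* in CD8+ T cells, and *Socs6* moved ahead of *Socs7* in NK cells.

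The summed level of the family per length was 18.6, 18.6 and 5.37 in CD8+ T cells, compared with 26.8, 32.0 and 33.8 in NK cells. *Socs5* made up 44.5%, 41.8% and 39.6% of it in the NK cell libraries. In CD8+ T cells, the leading member changed from *Socs3* in library 1 (38.8%) to *Socs4* in libraries 2 and 3 (44.9% and 62.8%). *Socs2*, *Socs5* and *Socs7* together held 71.9%, 76.7% and 64.7% of the sum in NK cells and 0%, 15.5% and 1.02% in CD8+ T cells. These 3 were grouped because their NK cell values all exceeded their CD8+ T cell values. Their larger share in NK cells follows from that choice and is no separate result. The sum of the other 5 members was 18.6, 15.7 and 5.31 in CD8+ T cells versus 7.51, 7.44 and 11.9 in NK cells, and these values overlapped.

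**Figure D3:**
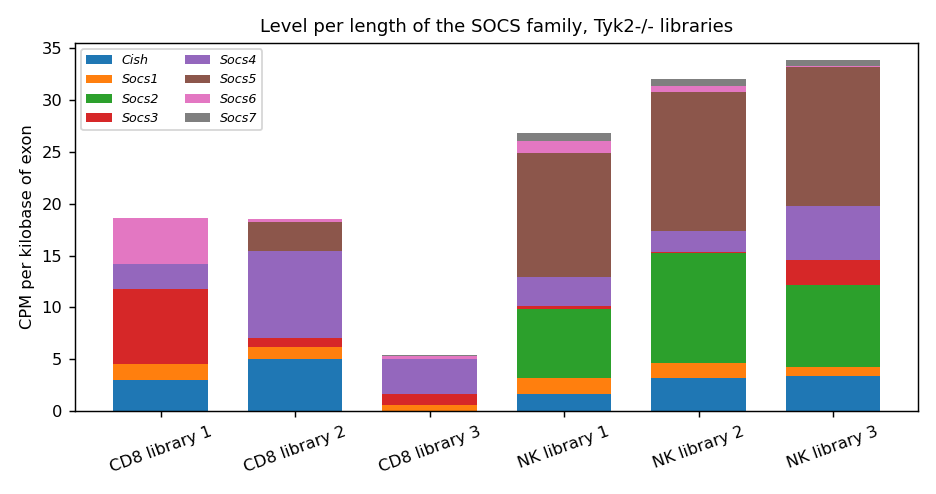
Stacked levels (CPM per kilobase of exon) of the 8 SOCS genes in each *Tyk2*-/- library. The NK cell bars reach 26.8 to 33.8 and are mainly *Socs5* and *Socs2*, whereas the CD8+ T cell bars reach 5.37 to 18.6 and differ in their leading member.

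The genes around the SOCS proteins in the pathway were examined as 8 lists with 63 genes, of which 60 were tested. Of these, 16 were called, 10 as higher in NK cells and 6 as higher in CD8+ T cells, beside 11.4%, 6.24% and 5.14% of all genes tested. Of 6 genes listed for the SOCS box ligase, none was called higher in either cell type, and their median log2 fold change was 0.04. These were *Elob*, *Eloc*, *Cul5*, *Rnf7*, *Ube2f* and *Nedd8*. *Eloc* (-0.97), though not called, was higher in every CD8+ T cell library than in any NK cell library, as were 16.1% of all genes. Other SOCS box proteins were mostly not called either. Of 13, 11 were tested and 1 was called, namely *Asb2*, a substrate adaptor of a cullin 5 ligase, and the median was 0.13. *Asb2* had no count in CD8+ T cells, as opposed to 845, 1166 and 1562 counts in NK cells, i.e. at least 312-fold higher (adjusted p = 0.0064, edgeR), which is the same presence and absence as seen for *Socs2*.

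Among the upstream kinases and STATs, *Jak1*, the kinase used by most receptors of this pathway, was higher in NK cells by 1.39 ± 0.20 (SE) on the log2 scale (adjusted p = 0.010), and *Jak2*, *Jak3* and *Tyk2* were not called (median over the 4 kinases 0.81). *Stat5a* (-0.48) and *Stat5b* (-0.39), whose products induce *Cish* and *Socs2*, were not called. *Stat5b* was higher in every CD8+ T cell library than in any NK cell library, as were 16.1% of all genes, whereas *Stat5a* overlapped. The median over 7 STAT genes was -0.51.

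Of the receptor chains for IL-2, IL-7 and IL-15, *Il2rb*, the beta chain shared by the IL-2 and IL-15 receptors, was higher in NK cells by 5.64 ± 0.32 (SE) on the log2 scale (adjusted p = 0.00035, edgeR). It had 1286, 1229 and 840 counts in CD8+ T cells, compared with 71086, 70842 and 73422 counts in NK cells. *Il7r* (log2 fold change -1.71 ± 0.22 SE, adjusted p = 0.0061) and *Il21r* (-2.38 ± 0.26 SE, adjusted p = 0.0031) were higher in CD8+ T cells. The common gamma chain *Il2rg* was not called (-0.68, adjusted p = 0.064), and the median over the 6 chains tested was -1.19. Of the 8 chains for interferons, IL-6 type cytokines and IL-12, 4 were called, 2 in each direction, and their median was 0.67. *Ifnar2*, a chain of the type I interferon receptor, was higher in NK cells by 1.89 ± 0.23 (SE) on the log2 scale (adjusted p = 0.0045). *Il12rb2*, the signaling chain of the IL-12 receptor, was at 0 in all CD8+ T cell libraries, whereas NK cells had 1491, 1000 and 2158 counts, at least 412-fold more (adjusted p = 0.0057). *Il6ra* and *Il6st*, the IL-6 receptor and its partner gp130 to which SOCS3 binds, were both higher in CD8+ T cells. *Il6ra* had 3461, 2821 and 2679 counts in CD8+ T cells, as opposed to none in NK cells, at least 1265-fold lower (adjusted p = 0.0012), and *Il6st* had a log2 fold change of -7.09 ± 0.64 SE (adjusted p = 0.0016).

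Other inhibitors of JAK-STAT signaling were called in both directions, with a median log2 fold change of 0.45. Of 11 tested, the phosphatase genes *Ptpn1* (log2 fold change 1.15 ± 0.19 SE, adjusted p = 0.014) and *Ptprc* (1.18 ± 0.15 SE, adjusted p = 0.0053), which encodes CD45, were higher in NK cells. *Pias1*, an E3 SUMO ligase that inhibits STAT signaling, was higher in CD8+ T cells (-1.19 ± 0.21 SE, adjusted p = 0.018). Of 7 other genes known to be induced by STAT5, 3 were called higher in NK cells (6.24% of all genes) and none in CD8+ T cells (5.14%). These were the kinase gene *Pim1* (log2 fold change 3.66 ± 0.82 SE, adjusted p = 0.037) and the cyclin genes *Ccnd2* (0.74 ± 0.18 SE, adjusted p = 0.047) and *Ccnd3* (1.60 ± 0.17 SE, adjusted p = 0.0029). *Myc* (-2.13), *Osm* (-1.41), *Pim2* (-1.01) and *Bcl2* (0.32) of the same list were not called, and its median was 0.32. For 2 of the 7, *Pim2* and *Myc*, every CD8+ T cell library was above every NK cell library (16.1% of all genes), as it was in the other direction for the 3 called genes (25.5%). When a library was left out, 8 of the 16 calls in the pathway lists held each time, i.e. those of *Il2rb*, *Il7r*, *Il21r*, *Ifnar2*, *Il6ra*, *Il6st*, *Ptprc* and *Ccnd3*. Without NK cell library 1 or 3, *Jak1* and *Il12rb2* were no longer called, with adjusted p-values (edgeR) of up to 0.056 and 0.054. *Asb2* was lost without NK cell library 2 or 3 (up to 0.063) and *Ptpn1* without 1 or 2 (up to 0.086). *Pias1* (up to 0.11) and *Pim1* (up to 0.15) were lost without any 1 of the NK cell libraries, and *Ccnd2* (up to 0.15) without any 1 library but CD8+ T cell library 3. With no filter on low counts, *Pim1* and *Ccnd2* were not called either (adjusted p = 0.065 and 0.054, edgeR).

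**Figure D4:**
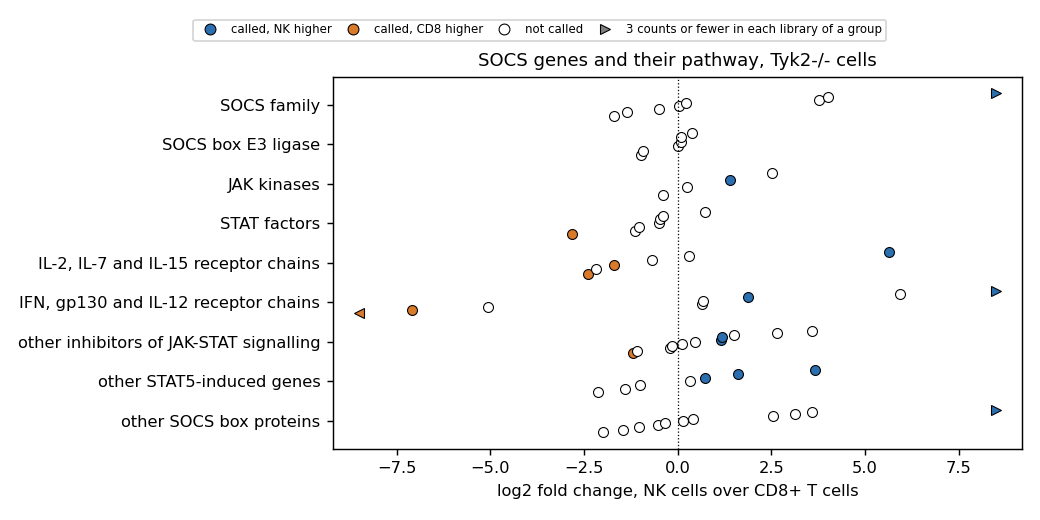
Log2 fold changes between *Tyk2*-/- cell types (NK over CD8+) for the SOCS family and the 8 lists around it, 1 point per gene, filled where the gene was called (blue, higher in NK cells and orange, higher in CD8+ T cells). Triangles at the edges mark genes with 3 counts or fewer in every library of a group, i.e. *Socs2*, *Il12rb2* and *Asb2* on the right and *Il6ra* on the left.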

How the data were processed

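The authors trimmed single-end reads of 50 bases (Trimmomatic 0.32) and used STAR 2.7.1 for alignment to mm10. Their deposited counts are whole numbers of reads per gene that aligned once and fell into exons, summarised in R 3.2.3 without normalisation. The strand setting is not given in the sources used here. Reads with several positions were left out, which can lower the counts of genes that have close copies. Of 104 columns of counts, 98 were not used. GENCODE vM21 basic (GRCm38) gave symbols and positions for 54079 of 54232 IDs.

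Counts were tested with edgeR 4.0.16 in R 4.3.3 (TMM factors, robust quasi-likelihood test, mean normalised count of at least 10, Benjamini-Hochberg adjustment). Normalised counts were scaled to the mean effective library size. DESeq2 1.42.0, RLE factors, no filter and leaving out each library were the alternatives. No unique molecular identifiers were used, thus the limit of 3 counts covers counting error only. The p-values measure the spread between libraries of pooled spleens. The SOCS genes, the gene lists and the naming rule (all members, *Tyk2*, list genes that were called with at most 4 per list, and the 3 genes most like a called member) were chosen with earlier results of these data known. Genes outside that rule were named after their values were seen. Results for some single genes of the lists are not reported here. On data simulated for 14062 genes at the estimated spread, 30 of 100 genes changed 16-fold were called by edgeR, as were 8 of 100 changed 4-fold and 3 unchanged genes.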

Additional observations from a re-analysis of the deposited data

How the results depend on the processing

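RLE normalisation and no filter on low counts left 1 SOCS gene called, and DESeq2 called 2, adding *Socs7*. DESeq2 also raised the calls in the pathway lists from 16 to 25 of 60 (14 higher in NK cells and 11 in CD8+ T cells). Over all genes, it called 3729 of 12612 tested (2132 and 1597), compared with 1600 of 14062 in edgeR, so a call by DESeq2 was more common. Calls over all genes were 1619 of 14079 with RLE and 1336 of 22840 with no filter. Leaving out each library in turn gave 0 to 2 SOCS genes, 9 to 19 genes in the pathway lists and 476 to 1946 genes in all. The log2 fold changes then ranged from -0.55 to 0.90 for *Cish*, -0.072 to 0.57 for *Socs1*, -0.97 to 0.23 for *Socs4* and -2.26 to 1.21 for *Socs6*, i.e. their sign is not settled. They ranged from -3.86 to -0.042 for *Socs3*, 3.18 to 11.41 for *Socs5* and 3.43 to 4.76 for *Socs7*, and *Socs2* stayed higher in NK cells in each of these fits. Members at 1 or more CPM per kilobase numbered 3 to 6 in CD8+ T cells, with 5 to 6 in NK cells, and members with a coefficient of variation above 1 numbered 2 to 5 and 0 to 2. The cause was not tested. The median log2 fold change of all genes was 0.17 with RLE and 0.16 with DESeq2. No paired analysis was possible because the titles of NK and CD8+ T cell samples share no numbering of replicates and the columns of counts do not carry the numbers of the titles. The planned comparison with *WT* CD8+ T cells was not run. With 3 libraries per group and the spread estimated over both cell types, most 4-fold changes in the simulated data were missed.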
